A study of Homo sapiens with 8 samples.

Results

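The genes described here encode 10 receptor chains through which an epithelial cell binds cytokines of the interleukin-20, interleukin-22, interleukin-6, interleukin-4 and type I interferon families. They are IL20RA, IL20RB, IL22RA1, IL10RB, IL6R, IL6ST, IL4R, IL13RA1, IFNAR1 and IFNAR2, and they were chosen by symbol. All 10 had a row in the authors' deposited tables of 18937 genes and all 10 were among the 16449 genes that passed the low-count filter here. The choice was made with the differences of these genes from the vehicle known. Those differences are therefore given as a description, without a p-value. Differences between compounds were tested, but they come from the same libraries and values. Their p-values are thus not free of that choice either.

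HT29 cells, a line derived from a human colorectal adenocarcinoma, gave 8 libraries, 2 for each of 4 treatments. Cells received 0.1% DMSO as the vehicle, 10 µM ICG-001, 1.5 µM CWP232228 or 0.3 µM YB-0158. Treatment lasted 48 h by the labels, except that replicate 2 of the ICG-001 group and replicate 2 of the CWP232228 group are labelled 49 h. The coactivator CREBBP is the known binding partner of ICG-001. The labels do not state whether replicates of a group were grown apart, and p-values thus refer to the spread between libraries, which may be technical. All results describe 1 cell line grown without the immune cells that make most of the ligands in the gut.

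Cytokine receptors of these families have no kinase of their own. Ligand binding brings together a pair of chains, one that recognises the ligand and one that is often shared between ligands, and the Janus kinases attached to them activate STAT transcription factors. IL20RB pairs with IL20RA or IL22RA1 for interleukins 20 and 24, and with IL20RA for interleukin 19. IL22RA1 pairs with IL10RB for interleukin 22, a cytokine of barrier repair in the intestine. IL6R binds interleukin 6 and signals through the shared chain IL6ST (gp130), IL4R pairs with IL13RA1 for interleukins 4 and 13, and IFNAR1 with IFNAR2 binds type I interferons.

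Each library held between 29071547 and 58489118 estimated reads, and levels are given as counts scaled to library size (CPM). Totals ran from 29071547 to 31022125 in DMSO and CWP232228, and from 39964987 to 58489118 with ICG-001 and YB-0158. Replicates differed more in DMSO than in the treated groups, with an SD of the log2 difference of 0.31 over 10181 genes against 0.13 to 0.14, while the fit gives each gene 1 spread for all groups. All 10 markers of colon epithelium had reads, and their summed level was 14900 to 17200 CPM in DMSO and 11200 to 13600 CPM with the compounds. That sum came mostly from KRT8 and KRT18 (means of 8500 and 4960 CPM in DMSO), which were lower with each compound. By their means, VIL1, CDX1, CDX2 and LGALS4 were also lower with each compound, and EPCAM, CDH1, KRT20 and CEACAM5 were higher. Of 10 leukocyte markers, 6 stayed below 1 CPM in every library, with CD3E, MS4A1 and NKG7 at 0. The list's sum of 2490 to 2880 CPM came mostly from LYZ (2480 to 2860 CPM), which intestinal epithelial cells also make. The 6 fibroblast markers summed to between 4.35 and 6.09 CPM, with COL1A2 at 0.

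IL20RB and IL6R had the lowest levels per length of the 10 genes in DMSO. IL20RB had the highest fold difference from DMSO with each compound, and IL6R the second highest with ICG-001 and YB-0158. IL20RB was 9.55-fold higher with ICG-001, 5.44-fold with CWP232228 and 11.8-fold with YB-0158. IL6R was 4.28-fold, 1.76-fold and 4.80-fold higher in the same order. With CWP232228 IL6R was below IL6ST (2.32-fold), whose value rests on part of its transcripts, as described below. For these genes the stretches of DNA before the annotated start are printed so that their letters can be read beside the values. Both are the 250 bases upstream of the RefSeq start on GRCh38.p14, 5′ to 3′, and capitals mark matches to the motifs given below.
IL20RB, chr3:136957733-136957982, plus strand: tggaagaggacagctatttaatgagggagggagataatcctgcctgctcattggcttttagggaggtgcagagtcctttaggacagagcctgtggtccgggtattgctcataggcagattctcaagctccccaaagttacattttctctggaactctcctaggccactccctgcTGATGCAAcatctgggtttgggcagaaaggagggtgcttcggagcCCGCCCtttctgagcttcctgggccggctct
IL6R, chr1:154405093-154405342, plus strand: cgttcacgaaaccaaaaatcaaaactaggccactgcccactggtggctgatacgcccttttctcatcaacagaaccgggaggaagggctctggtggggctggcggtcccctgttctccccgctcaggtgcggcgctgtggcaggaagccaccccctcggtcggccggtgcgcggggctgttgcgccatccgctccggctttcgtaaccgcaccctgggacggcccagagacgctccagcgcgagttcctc

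The windows were searched on both strands for 7 motifs. They were TGATGNAA (the C/EBP-ATF response element), TGACGTCA (the cyclic AMP response element), TGANTCA (AP-1), TTCNNNGAA (STAT), CTTTGAT (TCF/LEF), CACGTG (E-box) and GGGCGG (GC box). The IL20RB window holds TGATGCAA from 76 to 69 bases before the start and CCGCCC from 31 to 26 bases before it. Among 35116 windows of the same length, 3.14% hold TGATGNAA and 42.6% hold GGGCGG, each on either strand. The IL6R window has none of the 7, and its GC content is 65.2% against 53.6% in the IL20RB window. The other shares are 1.65% for TGACGTCA, 6.57% for TGANTCA, 6.57% for TTCNNNGAA, 2.26% for CTTTGAT and 6.34% for CACGTG. A match describes letters, not a bound site. The RefSeq start lies 118 bases downstream of the start of the main transcript of IL20RB in GENCODE 29 and 150 bases downstream for IL6R. Both matches in the IL20RB window thus lie downstream of that GENCODE 29 start, not before it. The lengths in the deposited transcript tables are shorter than in GENCODE 29 by the same 118 and 150 bases.

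IL20RB (ENSG00000174564; GRCh38 chromosome 3, 136946230 to 137011085, plus strand) encodes the beta chain shared by the receptors for interleukins 19, 20 and 24. Its level was 2.82 and 3.25 CPM in the 2 DMSO libraries, 28.9 and 29.1 CPM with ICG-001, 17.7 and 15.3 CPM with CWP232228, and 35.9 and 35.6 CPM with YB-0158. Every treated library was above both DMSO libraries, and the groups did not overlap one another. The log2 difference from DMSO was 3.26 with ICG-001, 2.44 with CWP232228 and 3.56 with YB-0158, each with an SE of 0.12. These differences rank 123rd, 137th and 101st from the top among 16449 genes. The 3 comparisons share the DMSO libraries and are not independent. The authors' deposited tables give 3.44, 2.73 and 3.70 for the same genes and comparisons.

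Most IL20RB reads belonged to IL20RB-201, a protein-coding transcript with 83.6% to 92.5% of the gene's reads. IL20RB-202, which is annotated as a target of nonsense-mediated decay, held 16.4% and 10.1% of them in DMSO and 1.13% to 11.4% with the compounds. The higher level thus lay in the coding transcript. Only 0.4% of the 31-base windows of IL20RB-201 occur in another gene, the antisense gene IL20RB-AS1. The libraries do not mark strand.

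**Figure D1:**
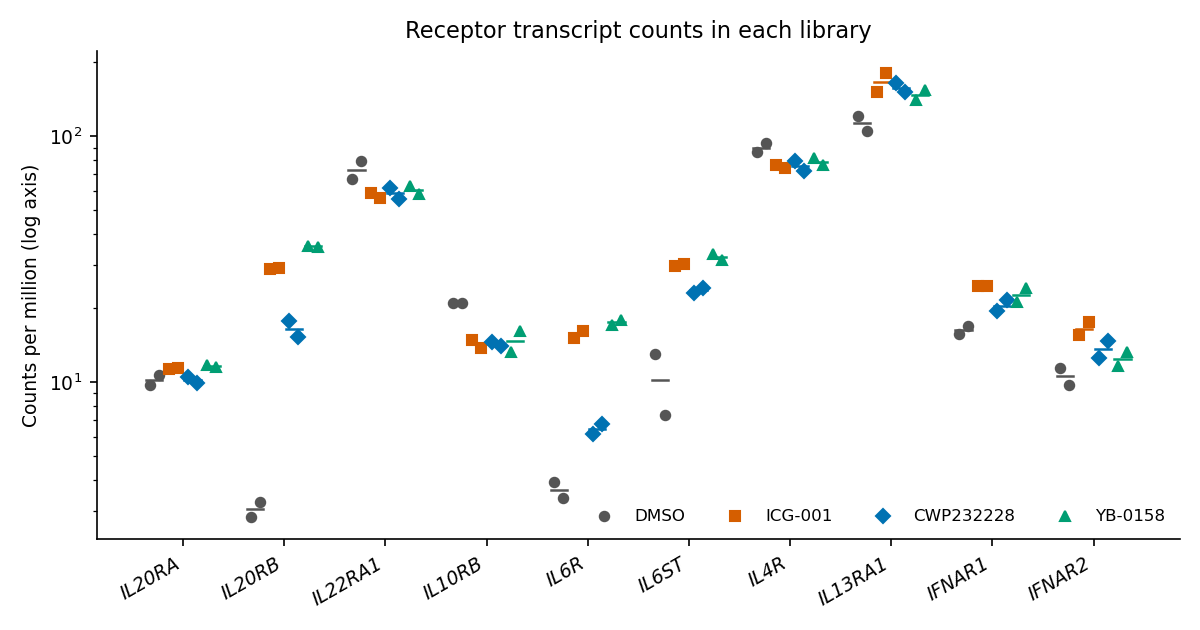
Counts scaled to library size (CPM) on a log axis for the 10 receptor genes in each of the 8 libraries, with 2 points and a bar at the mean for every group. IL20RB stands furthest above DMSO, and IL6R is lower under CWP232228 (6.15 and 6.72 CPM) than under the other compounds.

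IL20RA (ENSG00000016402; chromosome 6, 136999971 to 137045180, minus strand) encodes the alpha chain that pairs with IL20RB. It was at 9.73 and 10.7 CPM in DMSO, 11.3 and 11.4 CPM with ICG-001, 10.5 and 9.95 CPM with CWP232228, and 11.7 and 11.5 CPM with YB-0158. The CWP232228 libraries overlapped those of DMSO, and the other treated libraries lay just above them. The log2 differences were 0.16, 0.00 and 0.19 (SE 0.10 each), and the 95% intervals of all 3 contained 0. An offset for GC content and length gave -0.13, -0.33 and -0.05, and the authors' deposited tables give -0.23, -0.40 and -0.04. Of the last 3, only that with CWP232228 was called at the authors' adjusted p under 0.05. Its direction therefore depended on the setting. In CPM, IL20RB was below its partner in DMSO and above it in every treated library, but CPM takes no account of length.

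Per length, in the deposited FPKM, IL20RB was at 1.63 and 2.23 in DMSO against 5.82 and 6.29 for IL20RA. With ICG-001 it was at 21.3 and 20.6 against 4.76 and 5.24, with CWP232228 at 12.8 and 13.1 against 4.79 and 3.82, and with YB-0158 at 25.5 and 24.8 against 6.12 and 5.53. The order of the paired chains was thus reversed in all 6 treated libraries. Within IL20RA, the share of IL20RA-207 was 57.6% and 74.5% in DMSO and 79.9% to 91.9% with the compounds. The share of IL20RA-203 was 31.8% and 22.9% in DMSO and 7.81% to 14.7% with the compounds. This shift between transcripts was not tested.

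IL22RA1 (ENSG00000142677; chromosome 1, 24119771 to 24143121, minus strand) encodes the ligand-recognising chain of the interleukin-22 receptor and the alternative partner of IL20RB. Its 1 annotated transcript was at 66.9 and 79.0 CPM in DMSO, 58.8 and 56.3 CPM with ICG-001, 61.7 and 55.6 CPM with CWP232228, and 62.9 and 58.4 CPM with YB-0158. All 6 treated libraries were below both DMSO libraries, by a margin smaller than the distance between the DMSO libraries. The log2 differences were -0.34, -0.31 and -0.27 (SE 0.10 each), and -0.23, -0.21 and -0.15 without replicate 2 of DMSO. With the offset for GC content and length they were -0.18, -0.12 and -0.13.

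IL10RB (ENSG00000243646; chromosome 21, 33266358 to 33310187, plus strand) encodes the accessory chain of the receptors for interleukins 10, 22 and 26 and for type III interferons. It was at 20.9 CPM in both DMSO libraries, 14.8 and 13.7 CPM with ICG-001, 14.5 and 14.0 CPM with CWP232228, and 13.3 and 16.2 CPM with YB-0158. The log2 differences were -0.55, -0.55 and -0.51 (SE 0.11, 0.12 and 0.11). This lower level cannot be separated from the assignment of reads to a readthrough gene that spans IFNAR2 and IL10RB, as described with the interferon receptors below.

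IL6R (ENSG00000160712; chromosome 1, 154405193 to 154469450, plus strand) encodes the chain that binds interleukin 6. It was at 3.93 and 3.36 CPM in DMSO, 15.1 and 16.1 CPM with ICG-001, 6.15 and 6.72 CPM with CWP232228, and 17.1 and 17.9 CPM with YB-0158. All treated libraries were above DMSO, with those of CWP232228 much nearer to it than the rest. The log2 differences were 2.10 (SE 0.12), 0.82 (SE 0.13) and 2.26 (SE 0.12). IL6R-202, the long protein-coding transcript, held at least 90.1% of the reads in every library.

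The size of the IL6R difference under CWP232228 depended on the way transcripts were combined. It was 0.28 with an offset for the average transcript length, 0.32 on the deposited FPKM, and 0.12 in the authors' deposited table. In 1 DMSO library, 5.3 estimated reads of the 570-base transcript IL6R-207 made up 0.494 of the gene's 1.27 TPM. The other 7 libraries had no reads of it. For ICG-001 and YB-0158 the authors' deposited tables give 1.64 and 1.98.

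IL6ST (ENSG00000134352; chromosome 5, 55935095 to 55994993, minus strand) encodes gp130, the signalling chain shared by interleukin 6, interleukin 11, LIF and oncostatin M. The summed reads of its matched transcripts were 13.0 and 7.35 CPM in DMSO, 29.6 and 30.3 CPM with ICG-001, 23.1 and 24.2 CPM with CWP232228, and 33.3 and 31.4 CPM with YB-0158. These sums are higher in all treated libraries, with log2 differences of 1.56, 1.22 and 1.67 (SE 0.22 each), but they hold only 28.7% of the mean in the authors' tables. The authors' deposited tables give log2 fold changes of 0.01, 0.02 and 0.04 for the whole gene. The difference in the sums is therefore that of a subset of transcripts, and no direction is given for the whole gene.

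Among the matched IL6ST transcripts, IL6ST-209 held 56.4% to 73.6% of the reads in treated libraries and 26.2% and 0% in DMSO. In replicate 2 of DMSO, 97.2% of the reads went to IL6ST-201 instead, against 5.91% to 21% in all other libraries. Of the 31-base windows of IL6ST-209, 28.2% also occur in AC008914.1 or the pseudogene IL6STP1, so its reads are uncertain. The deposited FPKM of IL6ST was 59 and 4.43 in the DMSO libraries. In the first of them, 4.5 reads of the 168-base transcript IL6ST-207, with an effective length of 6 bases, gave 23.3 TPM. Another 5.9 reads of IL6ST-202, with an effective length of 9 bases, gave 20.3 TPM, out of 48.7 TPM for the gene. Levels of IL6ST per length were therefore set by a few reads.

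IL4R (ENSG00000077238; chromosome 16, 27313668 to 27364778, plus strand) encodes the chain that binds interleukin 4 and takes part in the response to interleukin 13. It was at 86.4 and 93.6 CPM in DMSO, 76.2 and 74.2 CPM with ICG-001, 79.0 and 72.5 CPM with CWP232228, and 81.6 and 76.1 CPM with YB-0158. All treated libraries were below DMSO, with log2 differences of -0.26, -0.25 and -0.19 (SE 0.08 each). They were -0.12, -0.06 and -0.07 with the offset for GC content and length. IL13RA1 (ENSG00000131724; chromosome X, 118727572 to 118794539, plus strand) encodes the partner chain that binds interleukin 13. It was at 121 and 105 CPM in DMSO, 152 and 181 CPM with ICG-001, 164 and 151 CPM with CWP232228, and 141 and 154 CPM with YB-0158.

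All treated libraries were above DMSO for IL13RA1, with log2 differences of 0.56, 0.48 and 0.38 (SE 0.11 each). With the offset for GC content and length these were 0.20, 0.08 and 0.07. The authors' deposited tables give 0.48, 0.49 and 0.33 for IL13RA1 and -0.26, -0.20 and -0.25 for IL4R. The 2 chains of this receptor thus lay on opposite sides of their DMSO level by small amounts.

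IFNAR1 (ENSG00000142166; chromosome 21, 33324477 to 33359862, plus strand) and IFNAR2 (ENSG00000159110; chromosome 21, 33229901 to 33265675, plus strand) encode the chains of the type I interferon receptor. IFNAR1 was at 15.7 and 16.9 CPM in DMSO, 24.7 and 24.5 CPM with ICG-001, 19.4 and 21.5 CPM with CWP232228, and 21.2 and 24.1 CPM with YB-0158. All treated libraries were above DMSO, with log2 differences of 0.59, 0.32 and 0.47 (SE 0.10 each). The sums hold 71.4% of the authors' mean for the gene, and the authors' deposited tables give 0.11, 0.16 and 0.09. With the offset for GC content and length the values were 0.03, -0.28 and -0.04, so no direction is given for IFNAR1.

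IFNAR2 was at 11.4 and 9.69 CPM in DMSO, 15.5 and 17.5 CPM with ICG-001, 12.5 and 14.7 CPM with CWP232228, and 11.6 and 13.3 CPM with YB-0158. The YB-0158 libraries began just above the higher DMSO library. The log2 differences were 0.65, 0.37 and 0.23 (SE 0.14 each), and the authors' deposited tables give 0.48, 0.30 and -0.14. On the deposited FPKM, IFNAR2 averaged 5.13 in DMSO and 4.43 with YB-0158, and no direction is given for that compound. Reads were divided between its long transcripts differently within the groups. IFNAR2-202 held 0% in replicate 2 of DMSO and replicate 1 of YB-0158, where IFNAR2-205 held 75.0% and 99.1%. In the other 6 libraries IFNAR2-202 held 43.0% to 80.0%.

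A readthrough gene, IFNAR2-IL10RB (ENSG00000249624; chromosome 21, 33229901 to 33297160, plus strand), starts with IFNAR2 and runs on into IL10RB. Its main transcript joins exon 9, which ends at 33263637 within the last exon of IFNAR2, to exon 10, which starts at 33268394 with the second exon of IL10RB. The junction is printed because it is the only stretch that sets this transcript apart from both neighbours. It shows 15 bases on either side, from GENCODE 29 on GRCh38, 5′ to 3′, with the IL10RB side in capitals.
Readthrough transcript, bases 2038 and 2039 at the junction: gttcctttcttccagCATTGGGAATGGTAC

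Of the 3740 windows of 31 bases in this transcript, 27 occur in neither IFNAR2 nor IL10RB. In turn, 88.3% of the windows of IL10RB-201 occur in the readthrough gene. Levels of the 3 genes thus rest on how the authors' quantification divided shared reads and are uncertain. The readthrough was at 0 in both DMSO libraries, 5.4 and 6.47 CPM with ICG-001, 5.17 and 2.97 CPM with CWP232228, and 8.84 and 5.45 CPM with YB-0158. Against a floor of 3 counts in each DMSO library, the reads assigned to it were 56.4-fold, 38.7-fold and 68.0-fold higher. The 0 in DMSO is itself an assignment of shared reads, so these are no lower bounds for the transcript.

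The sum of IL10RB and the readthrough was 20.9 CPM in both DMSO libraries, 20.2 and 20.1 CPM with ICG-001, 19.6 and 17.0 CPM with CWP232228, and 22.1 and 21.6 CPM with YB-0158. With the readthrough's reads added, the log2 difference of IL10RB was -0.05, -0.19 and 0.07 instead of -0.55, -0.55 and -0.51. The same addition gave 1.09, 0.75 and 0.89 for IFNAR2. In the treated libraries the readthrough took 17.5% to 40% of the sum with IL10RB. Each sum counts every readthrough read, although 53.7% of the readthrough windows occur in IFNAR2 and 45.6% in IL10RB, so neither sum gives the reads over the exons of 1 gene.

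**Figure D2:**
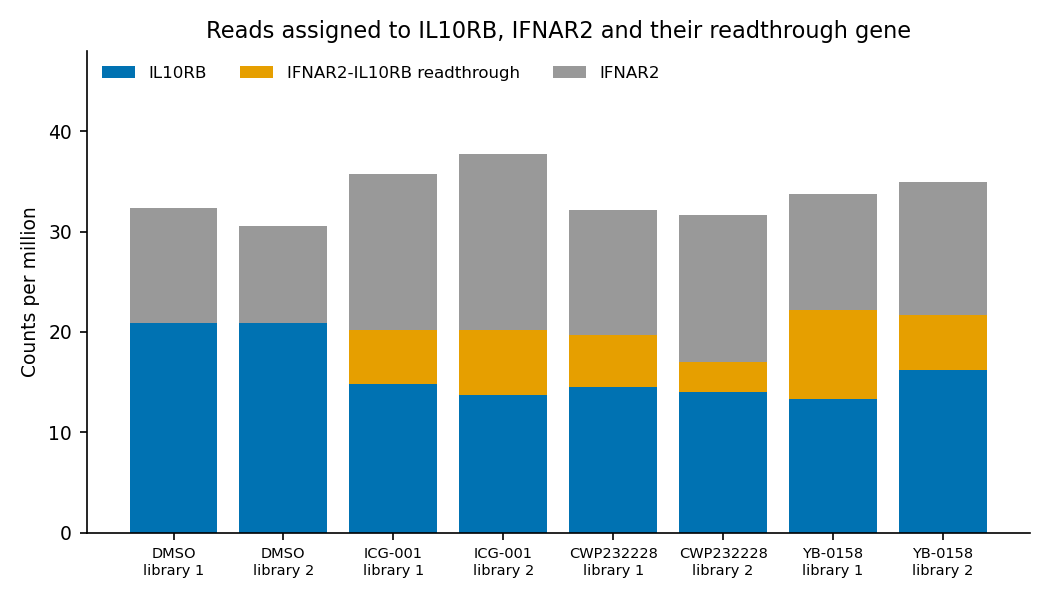
CPM of IL10RB, the readthrough gene and IFNAR2, stacked for each of the 8 libraries from an axis that starts at 0. The readthrough segment is missing from both DMSO libraries, and the top of the readthrough segment lies between 17.0 and 22.1 CPM throughout.

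Across the 10 genes, 6 were called higher and 3 lower than DMSO with ICG-001 at an adjusted p under 0.05 in edgeR, where 48.8% of all genes tested were called (24.8% higher and 24.0% lower). With CWP232228 5 were higher and 3 lower, against 42.8% of all genes (21.6% and 21.2%), and with YB-0158 5 were higher and 1 lower, against 43.8% (21.7% and 22.1%). Libraries did not overlap with DMSO for 10, 9 and 10 of the 10 genes, against 74.7%, 72.8% and 73.2% of all genes. Nothing is read from these counts, since the choice of genes used the same comparisons. Without IL6ST and IFNAR1, whose sums are incomplete, 7, 6 and 4 of 8 genes were called. By the adjusted p in the authors' deposited tables, 3 were higher and 2 lower with ICG-001, 2 and 2 with CWP232228, and 2 and 1 with YB-0158. Those lower with CWP232228 include IL20RA, which was not called in edgeR. The median log2 difference of the 10 was 0.57, 0.34 and 0.30, against 0.03, 0.04 and 0.02 over all genes. For CWP232228 the count of 8 fell to 4 without either of its own replicates and to 5 without replicate 1 or 2 of ICG-001 or replicate 1 of YB-0158.

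**Figure D3:**
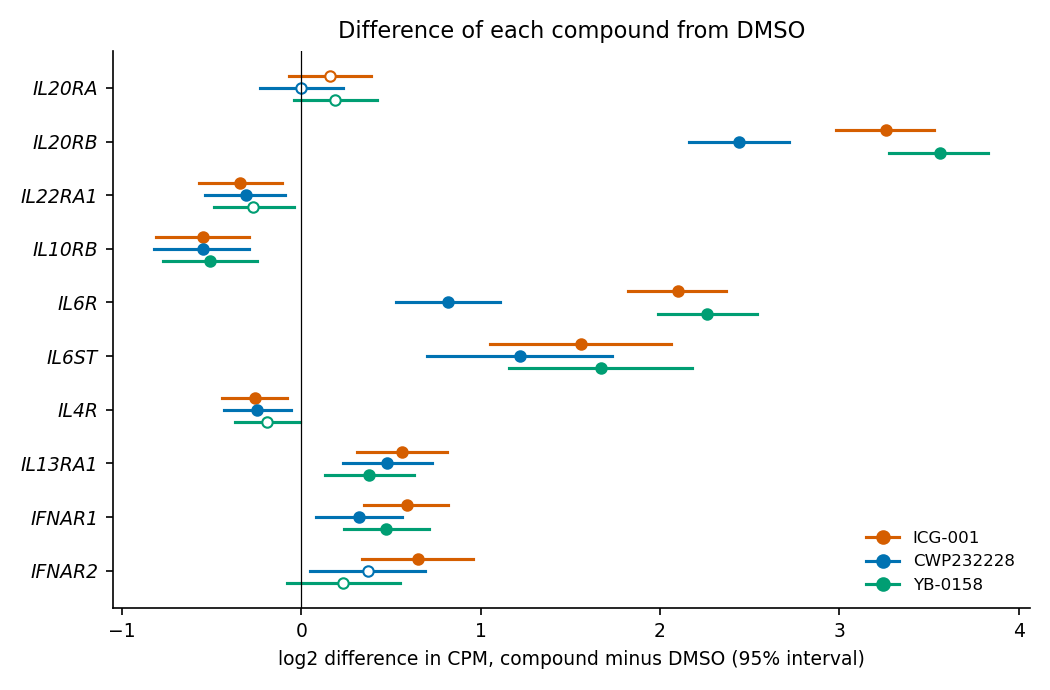
Log2 difference in CPM from DMSO for each receptor gene and compound, with 95% intervals from the edgeR fit, filled where the adjusted p was under 0.05. IL20RB lies at 2.44 to 3.56 and IL6R at 0.82 to 2.26, while IL20RA lies at 0.00 to 0.19.

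**Figure D4:**
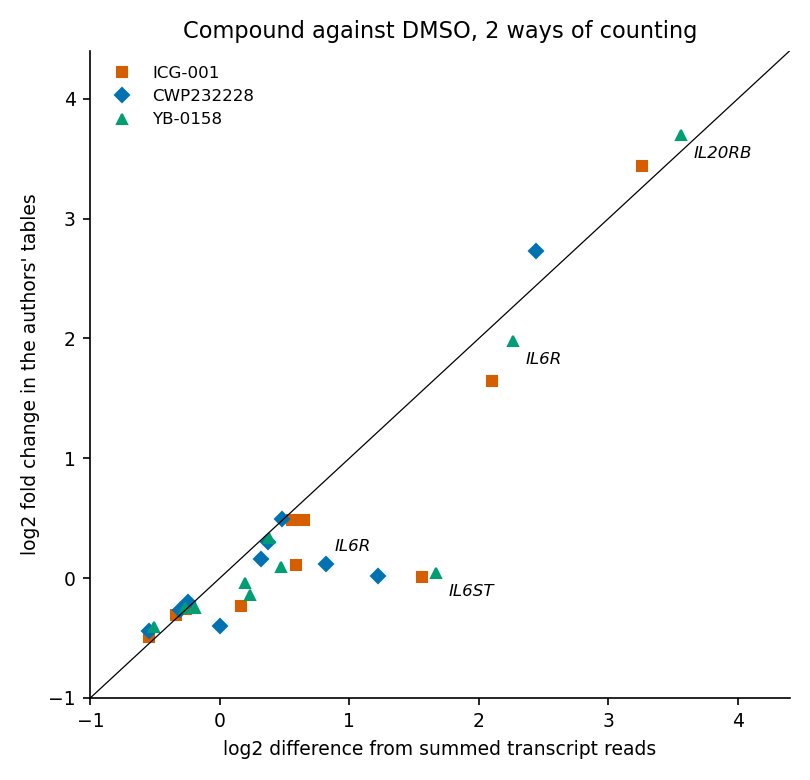
Log2 fold change of each receptor gene in the authors' deposited tables against the log2 difference from summed transcript reads, with the line of equality. IL20RB lies near the line and IL6ST far below it (0.04 against 1.67 with YB-0158).

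Differences between compounds were then tested over the 10 genes in 3 pairs, with p-values adjusted over all 16449 genes in each pair. The compounds were given at different doses, so dose and compound cannot be told apart. Both CWP232228 libraries also held fewer reads than those of the other compounds, and whether depth bears on the differences was not tested. IL6R was lower with CWP232228 than with ICG-001 by a log2 difference of -1.28 (SE 0.11, 95% interval -1.54 to -1.02, edgeR adjusted p = 0.0017). IL20RB was also lower, by -0.81 (SE 0.10, -1.04 to -0.58, edgeR adjusted p = 0.0045). In both genes both CWP232228 libraries were below both ICG-001 libraries. These were 2 of 10 genes called, where 6.82% of all genes were called (3.65% higher and 3.17% lower). Libraries did not overlap for 6 of the 10, against 58.6% of all genes.

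YB-0158 gave higher levels than CWP232228 of the same genes. The log2 difference was 1.44 for IL6R (SE 0.11, 95% interval 1.18 to 1.70, edgeR adjusted p = 0.0010) and 1.11 for IL20RB (SE 0.10, 0.88 to 1.34, edgeR adjusted p = 0.0016). Among all genes 7.78% were called in this pair (3.56% higher and 4.21% lower). Libraries did not overlap for 4 of the 10, against 62.5% of all genes. The IL6R calls were lost with the offset for average transcript length, at larger differences of -1.52 (edgeR adjusted p = 0.10) and 1.84 (edgeR adjusted p = 0.060), and with limma on FPKM, at -1.43 (adjusted p = 0.13) and 1.75 (adjusted p = 0.074). The IL20RB call between CWP232228 and ICG-001 was lost there too, at -0.69 in both (adjusted p = 0.077 and 0.099). It was also lost when replicate 1 of ICG-001 was left out (-0.82, edgeR adjusted p = 0.063) or replicate 2 of CWP232228 (-0.71, edgeR adjusted p = 0.070).

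YB-0158 and ICG-001 differed in none of the 10 genes at an adjusted p under 0.05 in edgeR, with 0 called by DESeq2 and 0 by limma on FPKM, and 0.00608% of all genes were called. Libraries did not overlap for 6 of the 10, against 45.1% of all genes. At an unadjusted p under 0.05 there were 2, IL20RB with a log2 difference of 0.30 (95% interval 0.08 to 0.53, adjusted p = 0.83) and IFNAR2 with -0.41 (-0.71 to -0.11, adjusted p = 0.81). For IL6R the difference was 0.17 (-0.08 to 0.41, adjusted p = 0.91). The interval of IL6ST was the widest, from -0.36 to 0.58. A missed threshold does not show that the compounds act alike.

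The remaining 8 genes were not called in any pair. Their log2 differences between CWP232228 and ICG-001 ran from -0.34 for IL6ST (95% interval -0.82 to 0.14) to 0.03 for IL22RA1 (-0.20 to 0.25). The interval of IFNAR1, from -0.50 to -0.04, excluded 0 at an adjusted p of 0.16 in edgeR. Between YB-0158 and CWP232228 they ran from -0.13 for IFNAR2 (-0.44 to 0.17) to 0.45 for IL6ST (-0.03 to 0.93). IL6ST passed the threshold in both pairs under some settings (adjusted p = 0.041 and 0.0023 with no low-count filter), with the limits on its sums given above.

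**Figure D5:**
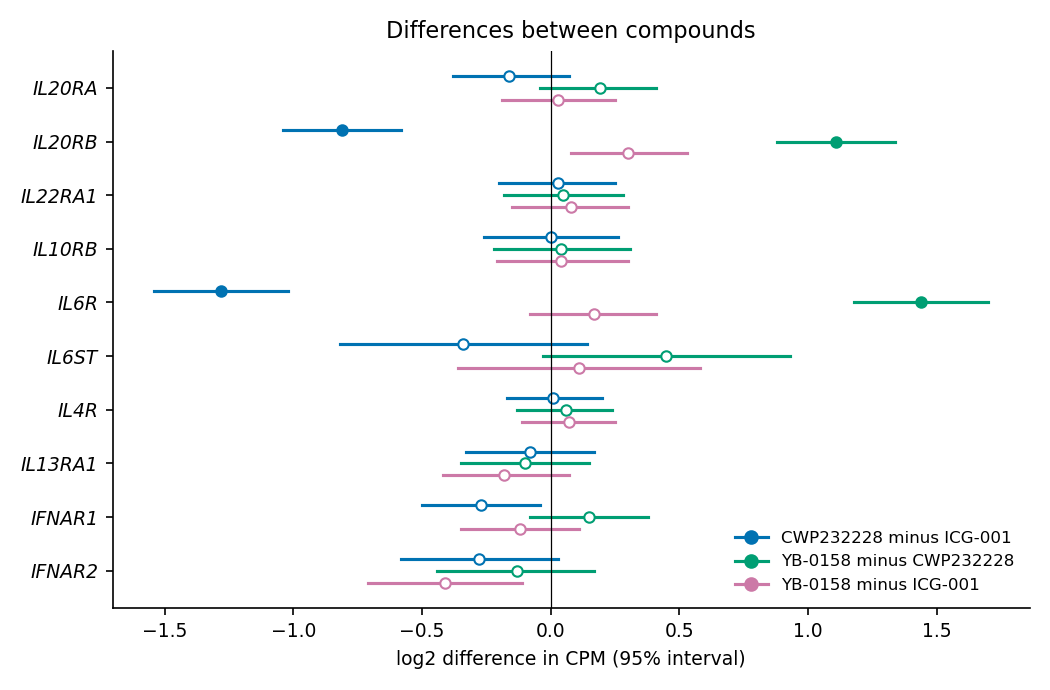
Log2 differences in CPM between compounds for the 10 receptor genes, with 95% intervals and filled points where the edgeR adjusted p was under 0.05. IL20RB and IL6R are the filled rows, at -0.81 and -1.28 for CWP232228 minus ICG-001 and at 1.11 and 1.44 for YB-0158 minus CWP232228.

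Levels between genes were ranked per length on the deposited FPKM. In DMSO the order was IL4R (44.7), IL13RA1 (34.4), IL6ST (31.7), IL22RA1 (26.0), IL10RB and IFNAR1 (12.5 each), IL20RA (6.06), IFNAR2 (5.13), IL20RB (1.93) and IL6R (0.994). The range of IL6ST, from 4.43 to 59, took in every gene from IL4R down to IFNAR2, so its place is not separated from theirs. Those of IL10RB and IFNAR1 also overlapped. With ICG-001 IL20RB stood in place 4 at 20.9, overlapping IL6ST above it and IL22RA1 below it at 20.6. With YB-0158 it stood in place 4 at 25.1, above IL22RA1 at 21.5 without overlap, and with CWP232228 in place 6 at 12.9, overlapping IFNAR1 at 14.8. IL13RA1 came first in all 3 treated groups, at 49.4, 50.5 and 44.6, overlapping IL6ST in each of them, and IL6R last, at 3.36, 1.17 and 4.18. IL6R overlapped IFNAR2 with YB-0158.

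The genes whose log2 CPM followed that of IL20RB most closely over the 8 libraries were SLC6A9, a glycine transporter, WARS1, the cytosolic tryptophanyl-tRNA synthetase, and PIWIL4. Pearson's r was 0.9960, 0.9954 and 0.9945 among 10969 genes compared. SLC6A9 was at 1.61 CPM in DMSO and at 47.5, 18.3 and 45.6 CPM with ICG-001, CWP232228 and YB-0158. For IL6R they were CDC42BPB, a kinase of the cytoskeleton (r = 0.9935), HERPUD1, a factor of endoplasmic reticulum-associated degradation (0.9928), and ANKRD29 (0.9923). HERPUD1 was at 60.9 CPM in DMSO and at 140, 86.5 and 145 CPM with the 3 compounds. IL6R and IL20RB correlated with each other at 0.9317. All these coefficients rest on 4 groups of libraries that share a treatment, so they describe a shared pattern over 4 levels. Depth was higher with ICG-001 and YB-0158 than in DMSO and CWP232228, and its part in the pattern was not tested.

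The wider pathway was followed in 153 listed genes, of which 94 were tested. The lists were chosen with earlier results of these data known. Most genes named below were picked among those called, by the size of their difference. Their adjusted p-values therefore describe the genes and are no independent support. With ICG-001 34 rose and 12 fell against DMSO (48.9% called), with CWP232228 31 rose and 12 fell (45.7%), and with YB-0158 30 rose and 12 fell (44.7%). These shares, in either direction, are close to the 48.8%, 42.8% and 43.8% over all genes. The split by direction is not. Over all genes, 24.8% were higher and 24.0% lower with ICG-001. The shares were 21.6% and 21.2% with CWP232228, and 21.7% and 22.1% with YB-0158. They also apply beside the counts of each list below. Nothing is read from the lean of the listed genes to higher levels, given how the lists were chosen. The calls depended on GC content: with the offset for GC content and length, 46, 33 and 43 pathway genes were called, of which 31, 20 and 32 were among those above. Of the genes named below, 23, 18 and 22 were called, and 20, 10 and 19 of them stayed called with the same sign under the offset. With CWP232228 the calls of F3, JAK1, JAK2, SOCS6, PTPN11 and MX2 were lost under it, and with YB-0158 that of OAS2. Counts of called pathway genes fell to 28 without replicate 2 of ICG-001. They fell to 24 and 18 without replicate 1 or 2 of CWP232228, and to 23 and 22 without replicate 1 or 2 of YB-0158.

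Among ligands, 5 of 27 passed the low-count filter. The genes for interleukins 19, 20, 22, 24, 26, 6, 4 and 13 did not. CLCF1, a gp130 cytokine, rose from 13.6 ± 1.18 CPM in DMSO to 21.9 ± 1.22, 16.6 ± 0.461 and 23.0 ± 0.793 CPM (mean ± SD, n = 2 libraries), with edgeR adjusted p of 8.4e-04, 0.049 and 6.1e-04. IFNE, an epithelial type I interferon, rose from 0.595 CPM to 1.74, 1.52 and 1.26 CPM, by 1.55, 1.34 and 1.08 on the log2 scale (edgeR adjusted p = 0.0015, 0.0051 and 0.010). LIF rose with YB-0158 (log2 difference 0.38, edgeR adjusted p = 0.013) and had 0.24 and 0.14 with ICG-001 and CWP232228 (adjusted p = 0.065 and 0.27). With the offset for GC content and length, LIF had 0.31, 0.25 and 0.42 with ICG-001, CWP232228 and YB-0158 (edgeR adjusted p = 0.0042, 0.024 and 7.5e-04). In all, 3, 2 and 4 of the 5 rose and 0 fell in edgeR.

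Of 9 tested related type I receptors, 3 rose and 1 fell with ICG-001, 1 and 1 with CWP232228, and 2 and 1 with YB-0158. IL27RA, the interleukin-27 receptor chain that pairs with IL6ST, fell by 2.47, 1.12 and 1.89 on the log2 scale (edgeR adjusted p = 3.8e-04, 0.015 and 0.0013), from 2.53 CPM to 0.454, 1.16 and 0.684 CPM. PRLR, the prolactin receptor, had log2 differences of 0.73, 1.17 and 0.45 (edgeR adjusted p = 0.0028, 9.6e-04 and 0.027), but -0.13, 0.22 and -0.32 with the offset, so no direction is given. EPOR, the erythropoietin receptor, rose with ICG-001 and YB-0158 (0.70 and 0.48, edgeR adjusted p = 0.0047 and 0.028) and had 0.25 with CWP232228 (adjusted p = 0.21). With the offset, EPOR had 1.06, 0.66 and 0.81 with ICG-001, CWP232228 and YB-0158 (edgeR adjusted p = 5.4e-05, 0.0035 and 3.5e-04). Among 4 tested type II relatives, IFNGR1, the ligand-binding chain for interferon gamma, rose from 60.2 to 109, 86.8 and 101 CPM. Its log2 differences were 0.85, 0.53 and 0.74 (edgeR adjusted p = 7.9e-05, 0.0017 and 1.9e-04). F3, tissue factor, rose by 0.53, 0.38 and 0.39. IFNLR1, the partner of IL10RB for type III interferons, fell with ICG-001 and YB-0158 by 0.49 and 0.38 (edgeR adjusted p = 0.014 and 0.041) and had -0.21 with CWP232228 (adjusted p = 0.23).

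All 12 kinases and STATs were tested, and 2, 2 and 3 rose and 1 fell in each comparison. JAK2 rose from 2.38 CPM to 6.35, 4.76 and 5.71 CPM (edgeR adjusted p = 0.0013, 0.010 and 0.0027). JAK1 sums had log2 differences of 1.39, 0.97 and 1.2 (edgeR adjusted p = 0.010, 0.041 and 0.019), from 36.9 ± 16.9 CPM in DMSO, but they hold 66% of the authors' mean. For the whole gene the authors' deposited tables give 0.65, 0.19 and 0.77. STAT3, named after its values were seen as the main STAT of the interleukin-6 and interleukin-20 families, had log2 differences of 0.05, 0.00 and 0.14 (adjusted p = 0.63, 0.97 and 0.23).

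Of 19 factors that restrain or shed receptors, 7 rose and 2 fell in each comparison. SOCS4 and SOCS6 belong to the family of suppressors of cytokine signalling. SOCS6 rose by 0.63, 0.48 and 0.68 (edgeR adjusted p = 0.0062, 0.024 and 0.0051). SOCS4 had 0.74, 0.87 and 0.60 (edgeR adjusted p = 0.0083, 0.0062 and 0.023), but 0.01, -0.03 and 0.00 with the offset, so no direction is given. ADAM10, a protease that can shed IL6R, rose from 108 CPM to 177, 174 and 175 CPM (edgeR adjusted p = 0.0066, 0.010 and 0.0084). PTPN11, the phosphatase SHP2, rose by 0.80, 0.67 and 0.77 (edgeR adjusted p = 0.018, 0.038 and 0.023), with DMSO at 164 ± 57.0 CPM.

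Genes downstream of STATs went both ways. Of 9 tested STAT3 targets, 3 rose and 2 fell with ICG-001, 1 rose and 2 fell with CWP232228, and 3 rose and 1 fell with YB-0158. SERPINA3, an acute-phase protease inhibitor, rose from 4.63 CPM to 17.8, 17.7 and 23.4 CPM (edgeR adjusted p = 2.7e-05, 1.6e-04 and 1.6e-05). JUNB fell from 139 to 54.5, 68.4 and 60.6 CPM (edgeR adjusted p = 1.3e-05, 1.9e-04 and 2.5e-05). LCN2, an antimicrobial protein of epithelia, rose with ICG-001 and YB-0158 by 0.44 and 0.57 (edgeR adjusted p = 0.0072 and 0.0027) and had -0.26 with CWP232228 (adjusted p = 0.064). CEBPB had the same signs, at 0.40, -0.12 and 0.63 (edgeR adjusted p = 0.018, 0.42 and 0.0028). With the offset for GC content and length, the CWP232228 values were 0.17 for LCN2 and 0.44 for CEBPB (edgeR adjusted p = 0.019 and 0.092). No direction is therefore given for these 2 genes with CWP232228. Of 2 tested STAT6 targets, 1 rose and 1 fell with ICG-001 and with YB-0158, and 0 rose and 1 fell with CWP232228. The target that fell was the same in each comparison and lay below the level set for naming. TGM2, the other, rose with ICG-001 and YB-0158 by 0.58 each (edgeR adjusted p = 4.5e-04 and 5.2e-04) and had 0.04 with CWP232228 (adjusted p = 0.70).

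All 34 listed interferon-stimulated genes were tested. With ICG-001 13 rose and 4 fell, with CWP232228 16 and 5, and with YB-0158 8 and 5. The median log2 differences were 0.32, 0.47 and 0.27, against 0.03, 0.04 and 0.02 over all genes. OAS2, a sensor of double-stranded RNA, rose by 1.28, 1.26 and 0.79 (edgeR adjusted p = 0.0025, 0.0046 and 0.026). MX2 rose with ICG-001 and CWP232228 by 1.23 and 0.93 (edgeR adjusted p = 0.012 and 0.047) and had 0.66 with YB-0158 (adjusted p = 0.12). DDX60 rose with CWP232228 by 1.37 (edgeR adjusted p = 0.0022). It had 0.58 with ICG-001 (adjusted p = 0.047) and 0.48 with YB-0158 (adjusted p = 0.091), each -0.01 with the offset. IFITM3, a membrane protein that blocks virus entry, fell from 34.9 to 10.6, 17.2 and 11.7 CPM (edgeR adjusted p = 1.6e-05, 6.4e-04 and 2.5e-05). Whether these differences from DMSO differed between compounds was not tested for the listed genes.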

How the data were processed

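RNA of HT29 cells was sequenced after unstranded library preparation, per the labels' protocols. Salmon 1.3.0, fastp, DESeq2 and the genome build GRCh38 are named in the submitters' processing notes. The authors deposited estimated counts and TPM per transcript for each library, per the file headers. The deposited tables of each compound against DMSO give mean normalised signal, log2 fold changes with their standard errors, the test score, p-values and FPKM per library, per the file headers.

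Transcripts were matched to GENCODE 29 (204677 of 228754, 89.5%) and estimated counts were summed per gene and rounded. Sums fall short of the authors' means where transcripts were not matched. Genes were tested with edgeR 4.0.16 (R 4.3.3), with TMM normalisation, its filter on low counts and a quasi-likelihood fit over 8 libraries in 4 groups (4 residual degrees of freedom), with Benjamini-Hochberg adjustment over 16449 genes and a threshold of 0.05. DESeq2 1.42.0, limma 3.58.1 on log2(FPKM + 0.1), other filters, offsets and left-out libraries were alternatives. A floor of 3 counts stands for genes at 0. Intervals cover 95%. At totals of 29071547 to 58489118 reads, low genes carry more counting error.

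On simulated data for ICG-001 against DMSO (16449 genes), some genes were changed by 1, -1, 2 or -2 on the log2 scale. Of these, 98% and 88% were recovered at 1 and -1, and all at 2 and -2. Of all genes called there, 4.46% had not been changed. The simulated counts had 1 spread for all genes and groups and no link to GC content, unlike the data. These shares therefore do not show how often the comparisons with DMSO call falsely or miss a difference. Replicate numbers were not taken to pair the libraries, since same-numbered libraries correlated negatively between each compound and DMSO. Replicate differences followed GC content, with Spearman's rho of -0.6 in DMSO and 0.75, 0.57 and 0.54 with ICG-001, CWP232228 and YB-0158. The correlations therefore do not show whether libraries were paired. The main model has no block, and models with a block were alternatives.

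The 10 genes, the pathway lists and the tests were chosen with earlier results of these data known. Named pathway genes are at most 4 per list among those called in at least 1 comparison with DMSO, by the largest absolute log2 difference, with a mean log2 CPM of at least 0. Likeness names 3 genes each for IL20RB and IL6R by Pearson's r over 8 libraries, with a mean log2 CPM of at least 2. Named transcripts hold at least 10% of a gene's reads in a group, except IL6R-207, IL6ST-202 and IL6ST-207, which were chosen after their values were seen. Promoter windows are from RefSeq (GRCh38.p14). A window was matched for 9 of the 10 genes and none for IFNAR2.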

Additional observations from a re-analysis of the deposited data

How the results depend on the processing

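The offset for average transcript length and the crossed block were chosen after seeing the data. Over all results and alternatives, 1026 values stayed the same in direction and call or within their spread, 96 moved, 29 reversed, 11 gained a call and 8 lost one. The count of receptor genes called with ICG-001 against DMSO (9) was 5 with the average transcript length offset and 4 with limma on FPKM. With CWP232228 (8) it was 5 with only the 2 groups fitted, 4 with the GC content and length offset, with or without the block, 2 with the transcript length offset and 3 with limma on FPKM. With YB-0158 (6) it was 3 and 2 with the last 2 settings. Between CWP232228 and ICG-001 (2) it was 0 with both, and between YB-0158 and CWP232228 (2) it was 1 with both. Pathway genes called with CWP232228 (43) numbered 27 with only the 2 groups, 28 with the GC offset and block, 21 with the transcript length offset and 20 with limma on FPKM. With YB-0158 (42) they numbered 27 with only the 2 groups. A count can stay alike while its genes change: with the GC offset, 46, 33 and 43 pathway genes were called against DMSO and 31, 20 and 32 of them were shared with the 46, 43 and 42. The cause was not tested for any of these.

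Leaving out each library in turn gave 7 to 9, 4 to 8 and 4 to 8 receptor genes against DMSO with ICG-001, CWP232228 and YB-0158. Between CWP232228 and ICG-001 it gave 1 to 3, with 1 without replicate 1 of ICG-001 or replicate 2 of CWP232228. It gave 0 between YB-0158 and ICG-001 and 2 to 3 between YB-0158 and CWP232228. Pathway counts were 28 to 52, 18 to 51 and 22 to 50. Where a group kept 1 library, it was assumed to vary like the others.

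Some log2 differences changed sign. Not called, and not among the 29, were those of IL20RA and IFNAR2 against DMSO. IL20RA turned from 0.16 to between -0.28 and -0.13 with ICG-001 and from 0.19 to between -0.06 and -0.05 with YB-0158, with the GC offset, the transcript length offset and limma on FPKM. IFNAR2 with YB-0158 turned from 0.23 to -0.21 and -0.27 with the last 2 of these. With the GC offset, IFNAR1 was -0.28 with CWP232228 and -0.04 with YB-0158 against DMSO (-0.28 and -0.03 with the block). IL22RA1 and IL4R were each -0.01 between YB-0158 and CWP232228, also with the block. With the readthrough added, IL10RB was 0.07 (YB-0158 against DMSO) and IFNAR2 0.15 (YB-0158 against CWP232228). Between CWP232228 and ICG-001, the transcript length offset gave 0.41 for IL6ST and 0.04 for IL13RA1. Limma on FPKM gave 0.31 for IL6ST, 0.03 for IL13RA1 and 0.09 for IFNAR1, and IL4R was -0.01 with no filter. Between YB-0158 and CWP232228, IL4R was -0.04 with the transcript length offset and with limma on FPKM, which also gave -0.04 for IL6ST and -0.12 for IFNAR1. Leaving out 1 library at a time, the range crossed 0 for IL22RA1 (-0.05 to 0.10 between CWP232228 and ICG-001, -0.02 to 0.13 between YB-0158 and CWP232228) and IL10RB (-0.10 to 0.18 between YB-0158 and ICG-001, -0.10 to 0.19 between YB-0158 and CWP232228). It also crossed 0 between CWP232228 and ICG-001 for IL4R (-0.05 to 0.07) and IL13RA1 (-0.20 to 0.05). The cause was not tested.

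With the replicate block, 9, 6 and 6 receptor genes were called against DMSO and 2, 0 and 2 between compounds, with 43, 37 and 41 pathway genes. Deviations of same-numbered libraries correlated at -0.316, -0.315 and -0.254 between each compound and DMSO, and at 0.334, 0.477 and 0.205 between compounds (10181 genes). With the DMSO numbers exchanged, the block called 9, 9 and 9 receptor genes and 51, 47 and 44 pathway genes against DMSO.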
